A study of Mus musculus with 6 samples.

Results

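The members described here are 46 genes of the transforming growth factor beta (TGF-beta) and bone morphogenetic protein (BMP) pathway, out of 40166 mouse genes in the count table. They were chosen by name as ligands, receptors, SMAD proteins, antagonists and ID target genes. No value in these tumors entered that rule, but earlier results of these data were known when the members and further lists were chosen. RNA was sequenced in bulk from 6 YUMM3.3 tumors, with 3 from the vehicle group and 3 from the group treated with rigosertib (RGS). The study describes RGS as a small-molecule mimic of RAS. It also reports a debate over the source of microtubule effects of RGS preparations. YUMM3.3 is an established BRAF-mutant mouse melanoma cell line that was injected under the skin of C57BL/6 mice, so host cells can contribute RNA. The study describes some tumors, mostly of the control group, as large and partly necrotic when taken. Vehicle mice received water (0 mg/kg) and RGS mice 300 mg/kg, both by gavage on 5 days a week, and tumors were taken after 17 days of treatment. Mice were 8 to 10 weeks old when tumor cells were injected, by the general methods of the study. It is not stated whether the tumors came from separate mice, so p-values measure only the spread between these samples.

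TGF-beta family ligands bind pairs of type I and type II receptor kinases at the cell surface. TGF-beta and activin receptors phosphorylate SMAD2 and SMAD3, while BMP receptors phosphorylate SMAD1, SMAD5 and SMAD9, and all of these act with the common SMAD4 in the nucleus. Latency proteins and secreted antagonists limit the ligands outside the cell, and inhibitory SMADs, SKI proteins and SMURF ubiquitin ligases limit the signal inside it. In skin and melanoma, TGF-beta is known for restraining growth of normal melanocytes and for dampening T-cell responses, and the ID genes are classical targets of BMP signals.

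The counts summed to between 22793087 and 32555494 in the vehicle tumors (replicates 7, 8 and 9) and to between 13837932 and 21617368 in the RGS tumors (replicates 10, 11 and 12), so every vehicle library was the deeper one. Ribosomal protein genes took 5.66 to 10.2% of counts with vehicle and 3.15 to 3.68% with RGS, and mitochondrial genes 2.13 to 3.20% and 5.60 to 8.22%. The tumors, labelled as melanoma, held almost no RNA of the genes that define melanocytes. Of 10 such genes, 6 were at 0 counts in every tumor, among them *Tyr*, *Mlana* and *Dct*, and the list summed to 4.94 to 7.68 CPM (counts scaled by library size and by trimmed mean of M-values factors) with vehicle and 4.53 to 10.5 CPM with RGS. Markers of immune cells were also scarce. *Cd3e* and *Lyz2* were at or near 0, and of the 11 macrophage genes *Cd68* alone was past the count filter (58.8 to 64.7 CPM against 65.4 to 87.7 CPM). T-cell markers summed to at most 3.69 CPM and neutrophil markers to at most 0.673 CPM in any tumor. *Trac*, 1 of the 2 T-cell genes tested, had 0 counts in every vehicle tumor. It had 30, 16 and 10 counts in RGS replicates 10, 11 and 12 and was called higher with RGS. Fibroblast markers summed to 430 to 638 CPM with vehicle and 319 to 357 CPM with RGS. Of the 9 genes of this list that were tested, 3 fell, 1 rose (*Dcn*) and 5 did not pass. Of all genes tested, 32.8% were called in either direction. *Col1a2* and *Pdgfra* had the highest means of the list in both groups, and both fell. Pericyte and smooth muscle markers summed to 238 to 326 CPM and 526 to 579 CPM. That rise was carried by *Rgs5*, at 1.12 to 1.43 CPM with vehicle and 368 to 423 CPM with RGS. Of the 7 genes of this list that were tested, 3 rose and 4 fell, *Acta2* among those that fell, with a median log2 fold change of -0.87. Keratinocyte markers summed to 0.428 to 1.72 CPM and 9.42 to 29.1 CPM. Of the 10 genes of this list 3 were tested, and 2 of them rose, *Ivl* and *Krt76*. Both had 0 counts in every vehicle tumor and were at 5.87 to 19.6 CPM and 2.65 to 6.33 CPM with RGS. *Krt5* and *Krt14* had 0 counts in every RGS tumor. The part of these shifts in the results on pathway genes was not tested, and in bulk RNA fewer cells of a type and less RNA per cell cannot be told apart.

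RGS tumors differed from vehicle tumors over much of the pathway, with ID genes and *Bmp2* higher and *Bmp4*, *Tgfb2* and *Fst* lower. Of the 46 members, 44 were tested because their median count reached 5 in the vehicle or the RGS group, and 43 of them reached it in both. *Nog*, which encodes the BMP antagonist noggin, had no count in any tumor, and *Bmp7* had 1 count in 1 RGS tumor. With edgeR (quasi-likelihood F test, p-values adjusted by Benjamini-Hochberg across 15355 genes), 25 of the 44 members passed an adjusted p of 0.05 (56.8%), against 32.8% of all genes tested. RGS raised 15 members (34.1%), against 16.3% of all genes, and lowered 10 (22.7%), against 16.5% of all genes. Genes with more counts pass more often: among genes with a mean of at least 10 CPM, 22 of 37 members passed (59.5%), against 44.4% of all such genes. Of the members, 14 passed with a log2 fold change of at least 1 in either direction (31.8%), against 17.0% of all genes. The values of the vehicle and RGS tumors did not overlap for 27 members (61.4%), against 45.8% of all genes, and these were the 25 that passed the test plus *Smad1* and *Smad7*. The median log2 fold change was 0.18 over the members, beside -0.05 over all genes tested, and members ranged from -2.96 to 4.18. That median was 0.378 without vehicle replicate 7, 0.0933 without vehicle replicate 9 and 0.0361 with library size as the only scaling, which moved the median of all genes to -0.19. Thinning every library to the smallest total gave 16 members higher and 10 lower, and leaving out ribosomal protein and mitochondrial genes gave 15 and 10. Without vehicle replicate 8, 5 members were called lower and 13 higher. Where a call was lost in an alternative analysis, the adjusted p given with it is the highest over all 19 alternatives, and losses under the stricter thresholds alone are not listed gene by gene.

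**Figure D1:**
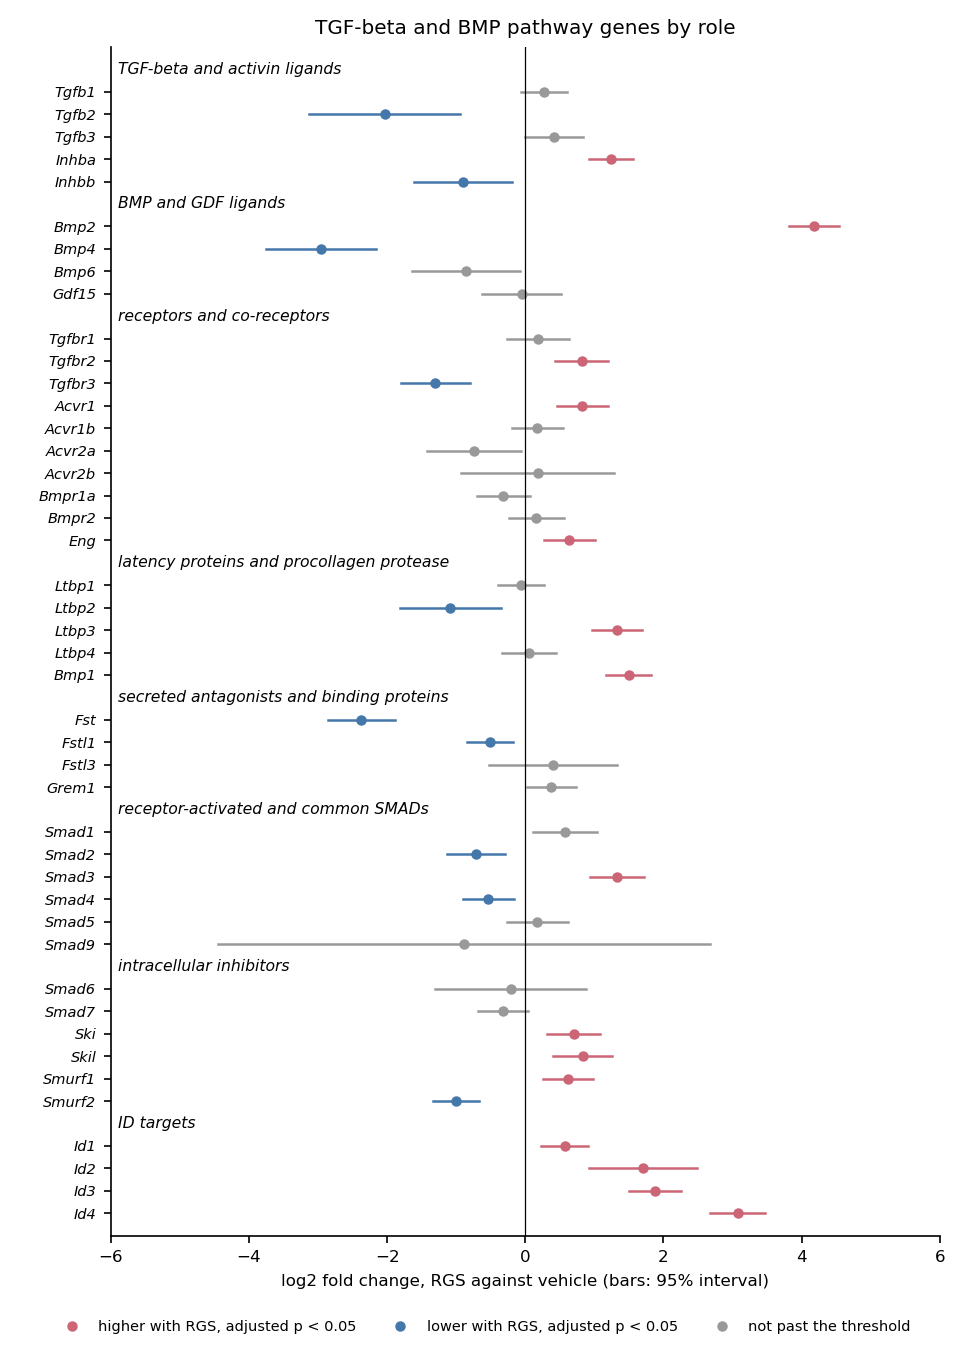
Log2 fold change of RGS against vehicle tumors (x axis) for the 44 tested members, grouped by role, with 95% intervals from edgeR as bars. Red points passed an adjusted p of 0.05 as higher, blue points as lower and grey points did not pass. *Bmp2* stands at 4.18, *Id4* at 3.08 and *Bmp4* at -2.96, while all 4 ID genes lie to the right of 0.

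The BMP ligands held both ends of this range. *Bmp2*, on chromosome 2 (133552159 to 133562885, GRCm38), encodes a ligand best known for inducing bone and cartilage. It was at 42.8, 39.8 and 51.9 CPM in vehicle replicates 7, 8 and 9 and at 847, 815 and 768 CPM in RGS replicates 10, 11 and 12. All RGS tumors stood far above all vehicle tumors, with 18.1-fold higher expression (log2 fold change 4.18, SE 0.17, adjusted p = 4.5e-12). *Bmp4*, on chromosome 14 (46383520 to 46390669), encodes the closest relative of BMP2, which binds the same receptors. It moved the other way, at 19.8, 16.3 and 17.9 CPM with vehicle and 3.41, 1.13 and 2.26 CPM with RGS. The 2 groups stood well apart, with expression 7.78-fold lower under RGS in the fit (log2 fold change -2.96, SE 0.38, adjusted p = 9.2e-06), and the lowest RGS tumor held 15 counts of *Bmp4*. *Bmp6*, which encodes a regulator of iron balance, went from 15.0 ± 3.42 CPM to 8.24 ± 4.58 CPM (SD, n = 3), with overlapping groups (log2 fold change -0.86, adjusted p = 0.084). Its exons share 5.74% of their bases with *Txndc5* on the opposite strand, which had 3795 to 7521 counts, and whether counting used strand is not given in the sources used here. *Gdf15*, a stress-induced distant family member, was at 13.2 ± 1.2 CPM and 12.8 ± 2.46 CPM, a log2 difference of -0.05 with a 95% interval from -0.62 to 0.52.

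**Figure D2:**
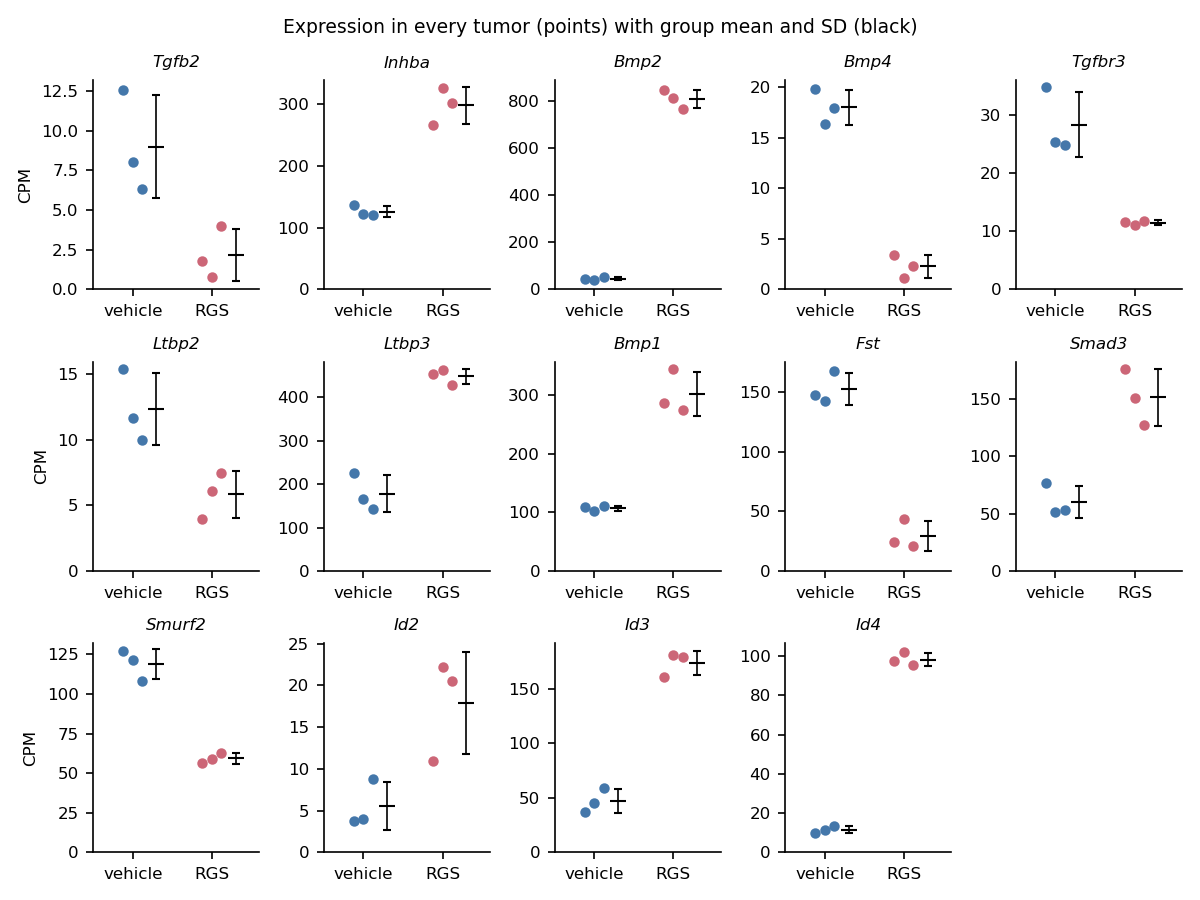
Expression in CPM (y axes, each starting at 0) in each vehicle tumor (blue) and each RGS tumor (red), for the 14 members past the threshold with a log2 fold change of at least 1 in either direction. Black marks give the mean and SD of the 3 tumors. In all 14 panels the groups are apart, most widely for *Bmp2*, where RGS tumors lie between 768 and 847 CPM.

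Among the 5 TGF-beta and activin ligands, 1 rose and 2 fell, where 32.8% of all genes tested were called in either direction. *Inhba* encodes the subunit that forms activin A. Its level was 136, 121 and 120 CPM with vehicle and 267, 327 and 301 CPM with RGS, higher in every RGS tumor (log2 fold change 1.24, SE 0.15, adjusted p = 5.7e-06). *Inhbb*, which encodes the activin B subunit, fell from 10.7 ± 0.98 CPM to 5.71 ± 0.89 CPM (log2 fold change -0.90, adjusted p = 0.046). That call was lost without any one of replicates 7, 8, 9, 10 or 11 and with no count filter (adjusted p up to 0.160). *Tgfb2* encodes the TGF-beta isoform that depends most on a co-receptor for binding. It was at 12.6, 8.05 and 6.32 CPM with vehicle and at 1.80, 0.753 and 3.98 CPM with RGS. The groups did not overlap, though the RGS tumors varied among themselves, between 10 and 65 counts (log2 fold change -2.04, SE 0.52, adjusted p = 0.0057). *Tgfb1*, the most widely expressed isoform, was at 114 ± 17.8 CPM and 138 ± 8.35 CPM, and *Tgfb3* at 38.7 ± 8.70 CPM and 51.5 ± 7.36 CPM. Neither passed (adjusted p = 0.21 and 0.12), with 95% intervals of the log2 difference from -0.07 to 0.60 and from -0.01 to 0.83. Both passed as higher without vehicle replicate 7, the tumor with their highest vehicle levels.

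Scaled per kilobase of gene length, so that genes can be set beside each other, the order of the 9 tested ligands differed between the groups. With vehicle, *Tgfb1* (20.4 to 26.8 CPM per kb) and *Inhba* (18.8 to 21.3) had the highest levels and overlapped. *Bmp2* (11.2 to 14.6) and *Tgfb3* (8.96 to 14.1) came next and overlapped too, followed by *Bmp4* (7.26 to 8.79) and *Gdf15* (6.70 to 7.88), another overlapping pair. *Bmp6* (3.04 to 4.78), *Inhbb* (2.25 to 2.7) and *Tgfb2* (1.09 to 2.17) were lowest, with no overlap between neighbours. With RGS, *Bmp2* led at 216 to 238 CPM per kb, apart from *Inhba* at 41.8 to 51.1 and *Tgfb1* at 25.5 to 28.8. At the other end, *Bmp6*, *Inhbb*, *Bmp4* and *Tgfb2* all lay between 0.130 and 3.29 CPM per kb, and neighbours in that order overlapped.

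**Figure D3:**
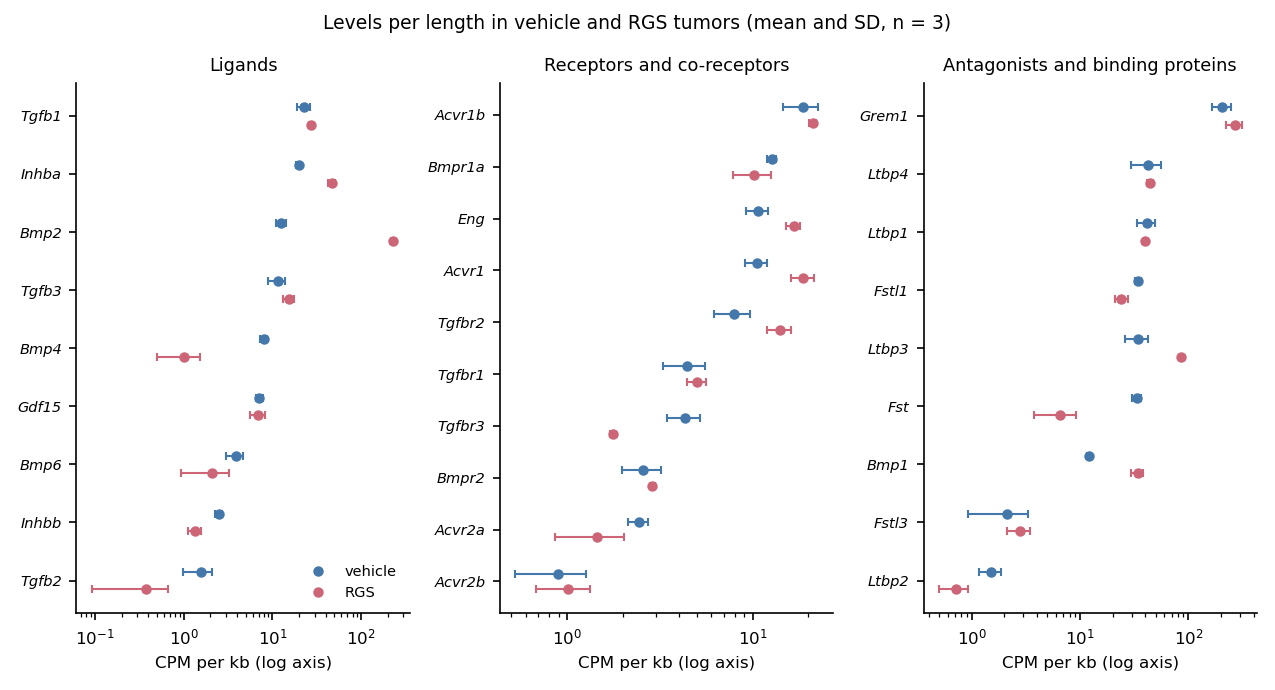
Levels per gene length in CPM per kb (x axes, log scale) for ligands, for receptors and co-receptors, and for latency proteins and antagonists, as means with SD of 3 vehicle tumors (blue) and 3 RGS tumors (red). Genes are sorted by the vehicle mean. *Bmp2* rises from 12.6 to 228 CPM per kb and passes all other ligands, and *Grem1* has the highest mean in its panel in both groups at 206 and 268 CPM per kb.

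Of the 10 receptors and co-receptors, 3 rose, 1 fell and 6 did not pass, where 32.8% of all genes tested were called in either direction. *Tgfbr2*, the type II receptor that binds TGF-beta first, rose from 65.3 ± 14.2 CPM to 115 ± 16.7 CPM (log2 fold change 0.82, adjusted p = 0.0020). *Acvr1*, a type I receptor for BMPs, rose from 51.1 ± 6.89 CPM to 90.4 ± 12.9 CPM (log2 fold change 0.82, adjusted p = 0.0014). *Eng* encodes endoglin, a co-receptor abundant on endothelium, and rose from 43.4 ± 5.86 CPM to 67.3 ± 6.03 CPM (log2 fold change 0.63, adjusted p = 0.0096). Endothelial markers summed to 45.9 to 64.4 CPM with vehicle and 58.0 to 63.4 CPM with RGS. *Flt1* was the highest of them in every tumor, at 32.2 to 55.0 CPM with vehicle and 29.5 to 32.5 CPM with RGS. Of the 13 markers, 5 had at most 3 counts in every tumor, and *Pecam1* was at most 1.04 CPM. Of the 7 tested, 2 rose, *Cdh5* and *Egfl7*, and 0 fell. The call of *Eng* was lost without vehicle replicate 8 (adjusted p = 0.0519), and 1.51% of its exon bases overlap *Fpgs* on the opposite strand. *Tgfbr3*, which encodes betaglycan, the co-receptor that presents TGF-beta2 to the signalling receptors, went against the others. It was at 34.9, 25.4 and 24.8 CPM with vehicle and 11.7, 11.1 and 11.7 CPM with RGS (log2 fold change -1.30, SE 0.24, adjusted p = 3.3e-04), and the RGS tumors were close to one another and below every vehicle tumor. *Tgfb2* and its co-receptor gene were both lower with RGS.

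The other 6 receptors did not pass the test. *Tgfbr1*, the type I partner of *Tgfbr2*, was at 28.8 ± 7.22 CPM and 32.8 ± 3.78 CPM, and *Acvr1b*, the activin type I receptor, at 82.3 ± 17.7 CPM and 93.0 ± 4.11 CPM. *Bmpr1a* and *Bmpr2*, the main type I and type II BMP receptors, had log2 differences of -0.32 (95% interval -0.70 to 0.07) and 0.16 (-0.24 to 0.56). *Acvr2a* and *Acvr2b*, type II receptors shared by activins and BMPs, had log2 differences of -0.74 (-1.42 to -0.07) and 0.18 (-0.93 to 1.29), with *Acvr2b* at 2.37 to 5.40 CPM over all 6 tumors. The adjusted p of *Acvr2a* was 0.086. Its exons share 7.84% of their bases with *Orc4* on the opposite strand.

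Latent TGF-beta binding proteins, apart from LTBP2, hold secreted TGF-beta in an inactive store in the matrix. Of their genes, *Ltbp3* was called higher and *Ltbp2* lower. *Ltbp3* was at 226, 166 and 142 CPM with vehicle and 454.5, 463 and 429 CPM with RGS, higher in every RGS tumor (log2 fold change 1.33, SE 0.17, adjusted p = 9.8e-06). *Ltbp2*, which binds fibrillin and not latent TGF-beta, was at 15.4, 11.7 and 9.98 CPM and 3.93, 6.10 and 7.46 CPM. Its fall (log2 fold change -1.09, SE 0.35, adjusted p = 0.022) was not called without replicate 7, 8 or 10, with adjusted p up to 0.0928. *Ltbp1* and *Ltbp4* had the highest means of the 4 with vehicle per kilobase and did not pass, with log2 differences of -0.06 (95% interval -0.39 to 0.27) and 0.05 (-0.34 to 0.44), though *Ltbp4* passed as higher without vehicle replicate 7. *Bmp1* is named with the BMPs but encodes a protease that trims procollagen and cleaves the BMP antagonist chordin. It was at 108, 102 and 111 CPM with vehicle and 286, 345 and 274 CPM with RGS, with tight vehicle values and no overlap (log2 fold change 1.5, SE 0.16, adjusted p = 7.7e-07).

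None of the 4 tested antagonists passed as higher with edgeR, DESeq2 or limma voom (0 each), though 1, *Grem1*, had an unadjusted p under 0.05 in edgeR. In edgeR 2 of the 4 fell, where 16.5% of all genes tested did. *Fst* encodes follistatin, which binds and neutralises activin. Its values were 148, 142 and 168 CPM with vehicle and 24.1, 43.9 and 20.9 CPM with RGS. Every RGS tumor was far below every vehicle tumor, 5.18-fold in the fit (log2 fold change -2.37, SE 0.23, adjusted p = 3.3e-07). *Fstl1*, a related secreted glycoprotein, fell from 169 ± 10.04 CPM to 119 ± 16.3 CPM (log2 fold change -0.51, adjusted p = 0.017), a call lost without replicate 8 or 11 (adjusted p up to 0.117). *Grem1*, which encodes the BMP antagonist gremlin, had the highest mean of all members per kilobase in both groups, though with RGS its range of 228 to 316 CPM per kb overlapped that of *Bmp2*. It was at 1038, 819 and 706 CPM with vehicle and 1309, 947 and 1075 CPM with RGS, with overlapping groups (log2 fold change 0.38, 95% interval 0.02 to 0.74, adjusted p = 0.099), and it passed as higher without vehicle replicate 7. *Fstl3*, another activin-binding protein, was at 5.15 ± 2.89 CPM and 6.82 ± 1.61 CPM (log2 difference 0.40, 95% interval -0.53 to 1.32).

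Within the SMADs, the TGF-beta and activin mediators moved in opposite directions. *Smad3* was at 76.7, 51.5 and 53.6 CPM with vehicle and 176, 151 and 127 CPM with RGS, higher in every RGS tumor (log2 fold change 1.32, SE 0.19, adjusted p = 2.6e-05). *Smad2* fell from 40.6 ± 3.50 CPM to 24.6 ± 3.59 CPM (log2 fold change -0.72, adjusted p = 0.0095), and the common *Smad4* fell from 118 ± 11.8 CPM to 81.2 ± 17.3 CPM (log2 fold change -0.54, adjusted p = 0.024). The call of *Smad2* was lost without replicate 8 (adjusted p = 0.0676) and that of *Smad4* without replicate 8, 11 or 12 (adjusted p up to 0.111). Of the BMP mediators, *Smad1* was at 37.9, 25.5 and 23.3 CPM with vehicle and 52.2, 38.8 and 37.9 CPM with RGS, where RGS replicate 12 lay barely above vehicle replicate 7 (log2 fold change 0.57, adjusted p = 0.053), and 7 of 19 alternative analyses called it higher. *Smad5* had a log2 difference of 0.17 (95% interval -0.27 to 0.62). *Smad9*, which reached the count filter in the RGS group only, had 0, 3 and 22 counts with vehicle and 5, 0 and 5 with RGS, so its log2 difference of -0.89 carried an interval from -4.44 to 2.67.

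Intracellular inhibitors were mixed in the same way. *Ski* and *Skil* encode corepressors that bind SMADs on DNA, and both rose, from 98.6 ± 21.9 CPM to 160 ± 28.1 CPM (log2 fold change 0.70, adjusted p = 0.0059) and from 26.9 ± 2.86 CPM to 47.8 ± 10.2 CPM (log2 fold change 0.83, adjusted p = 0.0040). The call of *Ski* was lost without RGS replicate 10 (adjusted p = 0.0507). The ubiquitin ligase genes diverged. *Smurf2* was at 127, 121 and 108 CPM with vehicle and 56.2, 59.0 and 63.0 CPM with RGS, lower in every RGS tumor (log2 fold change -1.0, SE 0.16, adjusted p = 9.0e-05). *Smurf1* rose from 125 ± 29.3 CPM to 192 ± 16.6 CPM (log2 fold change 0.62, adjusted p = 0.0098), and its call was lost without replicate 8 or 12 and without composition scaling of the libraries (adjusted p up to 0.0544). The inhibitory SMADs, which TGF-beta and BMP signals themselves are known to induce, did not pass. *Smad7* was at 59.2, 66.3 and 74.8 CPM with vehicle and 56.5, 47.8 and 55.5 CPM with RGS, just without overlap (log2 fold change -0.32, 95% interval -0.68 to 0.03, adjusted p = 0.16). *Smad6* was at 4.28 ± 1.69 CPM and 3.69 ± 1.39 CPM.

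All 4 ID genes rose, where 16.3% of all genes tested did. ID proteins pair with helix-loop-helix transcription factors and keep them off DNA, and their genes carry SMAD-responsive elements. *Id4*, on chromosome 13 (48261228 to 48266026), was at 9.99, 11.5 and 13.5 CPM with vehicle and 97.2, 102 and 95.3 CPM with RGS. The RGS tumors were nearly equal, and 8.45-fold above vehicle in the fit (log2 fold change 3.08, SE 0.19, adjusted p = 1.0e-09). *Id3* was at 36.9, 45.4 and 59.3 CPM with vehicle and 161, 181 and 179 CPM with RGS (log2 fold change 1.88, SE 0.18, adjusted p = 3.4e-07). *Id2* had the lowest mean of the 4 per kilobase in both groups, at 3.80, 3.96 and 8.81 CPM with vehicle and 10.9, 22.2 and 20.6 CPM with RGS (log2 fold change 1.70, SE 0.37, adjusted p = 0.0017), and its vehicle replicate 9 came closest to the RGS tumors. *Id1* had the highest mean of the 4 with vehicle per kilobase and the smallest fold change, at 55.4, 69.5 and 66.9 CPM and 96.3, 86.2 and 102 CPM (log2 fold change 0.57, SE 0.17, adjusted p = 0.013). The groups were apart for all 4. *Id2*, *Id3* and *Id4* kept their calls in all 19 alternative analyses. *Id1* lost its call without replicate 12 and without composition scaling of the libraries (adjusted p up to 0.0700), and it did not meet the stricter limits of an adjusted p of 0.01 or a log2 fold change of 1. The 2 antisense genes that overlap *Id4* exons in GENCODE M21 had 0 counts.

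RefSeq promoter windows on GRCm38.p6, from 250 bases before to 50 after an annotated RefSeq start, were matched for 34 of the 46 members. *Id1* was not among them and was not searched. The windows of *Id2* (chr12:25096043-25096342, minus strand), *Id3* (chr4:136143572-136143871, plus strand) and *Id4* (chr13:48260866-48261165, plus strand) are shown because these genes rose together. Capitals mark GGCGCC, the GC-rich motif known for SMAD1 and SMAD5, which reads the same on both strands.
Id2: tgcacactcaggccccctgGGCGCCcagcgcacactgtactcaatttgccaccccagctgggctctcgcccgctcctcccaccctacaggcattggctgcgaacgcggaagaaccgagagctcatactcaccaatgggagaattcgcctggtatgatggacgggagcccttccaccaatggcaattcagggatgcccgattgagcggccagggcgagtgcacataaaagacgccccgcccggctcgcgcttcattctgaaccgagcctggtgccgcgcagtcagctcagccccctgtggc
Id3: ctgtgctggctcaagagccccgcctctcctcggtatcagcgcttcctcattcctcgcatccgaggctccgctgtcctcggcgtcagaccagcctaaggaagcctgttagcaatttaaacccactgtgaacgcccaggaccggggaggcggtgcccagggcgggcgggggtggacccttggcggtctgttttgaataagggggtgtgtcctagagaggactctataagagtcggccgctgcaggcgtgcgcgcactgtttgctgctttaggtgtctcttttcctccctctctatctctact
Id4: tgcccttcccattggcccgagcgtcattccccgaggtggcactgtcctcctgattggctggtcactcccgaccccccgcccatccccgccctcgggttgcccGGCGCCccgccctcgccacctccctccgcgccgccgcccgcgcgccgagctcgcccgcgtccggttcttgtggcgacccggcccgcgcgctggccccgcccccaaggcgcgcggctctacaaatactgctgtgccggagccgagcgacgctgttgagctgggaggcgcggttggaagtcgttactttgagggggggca
The motif began at base 20 of the *Id2* window and base 103 of the *Id4* window, and these letters are not in the *Id3* window. Over all 32851 mouse windows 11.9% held GGCGCC, as did 14 of the 41 member windows, which belong to 12 genes. Member windows were also richer in G and C, with a median of 66.7% against 52.7% over all windows (63.3% in *Id2*, 60% in *Id3* and 73.3% in *Id4*). The part of base composition in the motif counts was not tested, and a match is a description of the sequence only. CAGACA, the SMAD motif on either strand, was in 7 of 41 member windows and 21% of all windows, and these letters were in none of the *Id2*, *Id3* and *Id4* windows. GTCTAGAC, the palindromic SMAD3 and SMAD4 motif, was in 1 member window, that of *Smad6*, and 0.213% of all windows.

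Several members that act on the same step moved apart, which is best seen in ratios of their levels per kilobase within each tumor. These pairs were picked after the values were seen, so the ratios are given without a test. *Bmp2* to *Bmp4* was 1.37, 1.54 and 1.83 in the vehicle tumors and 157, 456 and 215 in the RGS tumors. *Inhba* to *Fst*, activin subunit to activin antagonist, was 0.660, 0.612 and 0.513 and then 7.95, 5.34 and 10.4, so *Fst* was the higher of the pair in every vehicle tumor and *Inhba* in every RGS tumor. *Smad3* to *Smad2* went from between 0.764 and 1.34 to between 2.85 and 4.74. *Smurf1* to *Smurf2* went from 0.876 to 1.22 up to 2.87 to 3.40, and *Tgfbr2* to *Tgfbr3* from 1.76 to 1.88 up to 6.74 to 9.05. *Id1* stayed above *Id4* in every tumor, but the ratio of *Id4* to *Id1* rose from between 0.0498 and 0.0606 to between 0.282 and 0.357. The summed level of all members was 3471 to 4550 CPM with vehicle and 5696 to 6183 CPM with RGS. Abundant members weigh most in this sum, and the mean of *Bmp2* alone went from 44.8 to 810 CPM. The median log2 fold change over the members was 0.18, with 15 called higher and 10 lower.

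Beyond the members, 117 further genes of the pathway and its known responses were listed, of which 83 were tested, 24 rose (28.9%, against 16.3% of all genes) and 11 fell (13.3%, against 16.5%). None of 7 tested ligands outside the members passed in edgeR, where 2 had an unadjusted p under 0.05, while DESeq2 called 1 and limma voom 0, and their median log2 fold change was 0.01. Of 7 tested receptors and co-receptors, 2 rose and 2 fell (57.1% called, against 32.8% of all genes). *Rgmb*, a BMP co-receptor gene, went from 137 ± 13.7 CPM up to 398 ± 24.1 CPM (log2 fold change 1.54), and *Nrp1*, which binds TGF-beta among other ligands, rose with a log2 fold change of 1.59 from a low level. *Bambi*, a decoy receptor that BMP and TGF-beta signals are known to induce, was at 30.3, 37.9 and 39.0 CPM with vehicle and 10.3, 15.2 and 11.6 CPM with RGS (log2 fold change -1.53). Among 17 tested extracellular regulators, 8 rose (47.1%) and 1 fell (5.88%), with a median log2 fold change of 0.67. Those that rose included *Nbl1*, a BMP antagonist (1.82), *Lrrc32*, which anchors latent TGF-beta on cells (1.47), *Vasn*, a TGF-beta trap (1.24), and *Furin*, the protease that cuts TGF-beta precursors (1.03). *Dcn*, which encodes decorin, rose from 1.14 ± 0.495 CPM to 10.7 ± 4.61 CPM (log2 fold change 3.24) and is also a fibroblast marker. *Itgb8*, part of an integrin that activates latent TGF-beta, fell (-2.19, adjusted p = 0.049), a call lost in 10 of 19 alternatives, among them without replicate 7, 8, 10 or 11 (adjusted p up to 0.120). The calls of *Lrrc32* and *Nrp1* were lost without replicate 8 or 10 and without replicate 12 (adjusted p up to 0.0890 and 0.0801).

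Inside the cell, 5 of 21 tested regulators rose and 2 fell, so that 33.3% were called, near the 32.8% of all genes. *Pmepa1*, a TGF-beta-induced inhibitor of SMAD2 and SMAD3, was at 8.56, 6.95 and 6.49 CPM with vehicle and 58.8, 48.5 and 50.6 CPM with RGS (log2 fold change 2.84), and *Wwp1*, a ubiquitin ligase, rose by 1.53 on the log2 scale. TGF-beta response genes moved both ways, with 10 higher (41.7%) and 5 lower (20.8%) of 24 tested and a median log2 fold change of 0.11. *Angptl4*, a secreted lipase inhibitor, was at 27.0, 33.7 and 31.2 CPM with vehicle and 242, 318 and 313 CPM with RGS (log2 fold change 3.25), and *Pthlh*, which encodes parathyroid hormone-related protein, had a log2 fold change of 2.25. *Acta2*, smooth muscle actin, was at 83.1, 95.8 and 85.9 CPM and 14.3, 18.7 and 21.5 CPM (log2 fold change -2.28), and it is also a marker in the pericyte and smooth muscle list. The transcription factor genes *Bhlhe40* and *Klf10*, both known to be induced by TGF-beta, had log2 fold changes of -1.68 and -1.54. Of 11 tested BMP response genes outside the members, 1 rose, 2 fell and 8 did not pass (27.3% called, below the share of all genes), with a median log2 fold change of 0.10, beside the 4 of 4 ID genes that rose.

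**Figure D4:**
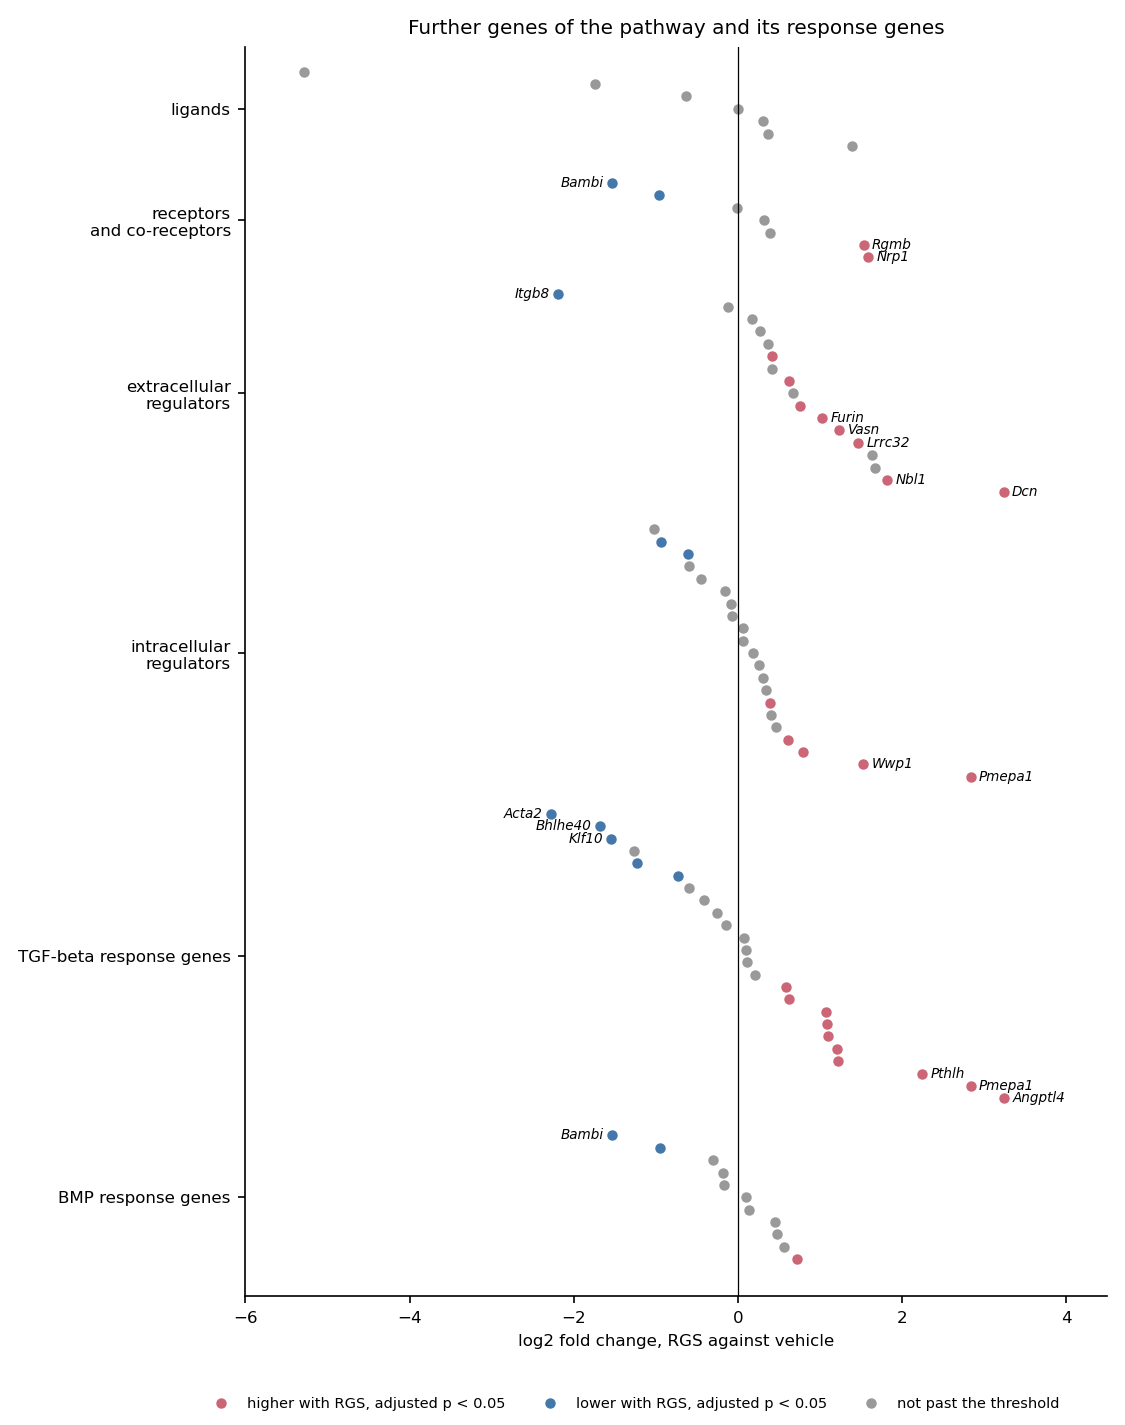
Log2 fold change of RGS against vehicle tumors (x axis) for the tested genes of 6 further lists of the pathway, sorted within each list, where red and blue points passed an adjusted p of 0.05 in edgeR as higher and lower. *Pmepa1*, *Bambi*, *Thbs1* and *Ldlrad4* each appear in more than 1 list. TGF-beta response genes run from *Acta2* at -2.28 to *Angptl4* at 3.25, while in the BMP response list *Bambi* is lowest at -1.53.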

How the data were processed

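Bulk RNA was sequenced from 3 vehicle and 3 RGS tumors as paired-end reads of 150 bases. The authors deposited 1 table of raw counts per gene, whole numbers without normalization, with 1 column per tumor matched by name to the sample labels. The submitters' processing notes list cutadapt 1.18, FastQC 0.11.7, STAR 2.7.1a, featureCounts 1.6.4 and the build mm10. The strand setting and the treatment of multi-mapped reads are not given in the sources used here. Of 40013 gene identifiers (versions ignored) shared with GENCODE M21, 39178 had the same start and end, and all 46 members were found. Between 13837932 and 32555494 counts per tumor set the precision, and 3 counts correspond to 0.0856 to 0.226 CPM.

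The comparison was fitted with edgeR 4.0.16 in R 4.3.3 (TMM factors, quasi-likelihood F test, group as the only term) on all 15355 genes with a median count of at least 5 in vehicle or RGS tumors. P-values were adjusted by Benjamini-Hochberg over these genes. The standard error is the fold change over the square root of F, and intervals of 95% use the t distribution with the fit's degrees of freedom. CPM are TMM-scaled, and CPM per kb divides them by the gene length in the table. The procedure was tested on simulated data. Alternatives were DESeq2 1.42.0, limma voom 3.58.1, other scalings and filters, thinned counts, ribosomal protein and mitochondrial genes left out, stricter thresholds and each tumor left out. Replicate counts differed by more than sampling noise, with a chi-square per degree of freedom of at least 18.5.

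Every member is named. Those past the threshold with a log2 fold change of at least 1 in size, a mean of at least 1 CPM and no overlap between groups are given per tumor with full statistics, and *Id1*, *Smad1*, *Smad7* and *Grem1* were given per tumor after their values were seen. Up to 6 further genes per pathway list are named by size of change. The members and lists were chosen with earlier results of these data known. In the lists *Ccn1* and *Ccn2* were matched to the older names *Cyr61* and *Ctgf*, and *Hjv* to *Hfe2*. Marker genes are named from cell type lists by their level, except *Tyr*, *Mlana*, *Dct*, *Cd3e*, *Trac*, *Lyz2*, *Pecam1*, *Cdh5* and *Egfl7*, which were named after their values were seen.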

Additional observations from a re-analysis of the deposited data

How the results depend on the processing

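No paired analysis was possible because the vehicle tumors are numbered 7 to 9 and the RGS tumors 10 to 12, so the groups share no replicate number. Of the 25 members called, 16 kept their call in all 17 alternatives other than the stricter thresholds, and none of the called members changed direction in any of the 19. The count of members called higher was 13 to 20 over those 17, and 8 with a log2 fold change of at least 1. The count called lower was 6 at an adjusted p of 0.01 and 6 with a log2 fold change of at least 1 in size, and between 5 (without replicate 8) and 10 with 1 tumor left out, where 3493 genes in all were called without replicate 8 against 5036. The members' median log2 fold change of 0.18 became 0.230 under limma voom and 0.0361 with library size only, which moved the median of all genes from -0.05 to -0.19, and it ranged from 0.0933 (without replicate 9) to 0.378 (without replicate 7). The cause of these moves was not tested. With 3 tumors a group, members near 1 CPM or below, such as *Smad9*, have intervals too wide to show a change of several fold.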

Other observations

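Vehicle replicate 7 was the highest of the vehicle tumors for 30 of the 44 tested members, whereas it was the highest for 41.1% of all genes tested. *Tgfb1*, *Tgfb3*, *Ltbp4*, *Grem1* and *Smad1* were not called with all 6 tumors and were called higher with RGS once that tumor was left out, which brought the number of members called higher to 20. Over all genes tested, 5249 of 15942 were called in either direction without that tumor, against 5036 of 15355 with all 6 tumors.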
